A study of Mus musculus with 8 samples.

Results

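The mitosis genes described here are 40 genes that act from entry into mitosis to the separation of the daughter cells, taken from the count table by an exact match of the gene symbol. All 40 were found, and all 40 were among the 13495 genes tested, with at least 115 reads each in every library. RNA was sequenced from cells carrying the epithelial surface protein EpCAM, sorted from antral gastric tumors of 4 Gp130FF; Yap1WT and 4 Gp130FF; Yap1KO mice, with 1 library per mouse. All 8 mice were homozygous for a mutant gp130 receptor that leads to inflammation-driven gastric tumors. Per the study's methods both cohorts were Gp130FF; Tff1:CreERT2; Yap1 fl/fl, so that tamoxifen deletes part of Yap1 only in cells in which the Tff1 promoter, active in surface mucous cells, drives Cre. Tamoxifen gave Yap1KO and vehicle gave Yap1WT, whereas the sample labels give 3 days after tamoxifen and an age of 18 wk for all 8 mice (the text of the study also gives another age).

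A cell enters mitosis when CDK1, bound to its cyclins, is freed of inhibitory phosphates by CDC25 phosphatases. Kinetochores then attach chromosomes to the spindle, and a checkpoint holds back the anaphase-promoting complex (APC/C) until every chromosome is attached. The APC/C then destroys cyclin B and securin, after which the cleavage furrow divides the cell. Most of these genes are transcribed in G2 and M phase. The DREAM, B-MYB and FOXM1 complexes control them through the CHR element of their promoters, which often hold CCAAT boxes as well. The summed RNA of these genes is widely read as a measure of how many cells are dividing. Yap1 encodes a co-activator of the Hippo pathway that binds TEAD factors and is known for promoting proliferation.

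Promoter sequences are shown to make this shared arrangement visible. RefSeq promoters of GRCm38.p6, each holding 250 bases before and 50 bases after the annotated start, matched 33 of the 40 members. Foxm1, Ccna2, Cdc25c, Aurkb, Incenp, Tpx2 and Kif20a had no entry. The letters TTTGAA, the core of the CHR element, stood on either strand in the promoters of 24 of the 33 members (72.7%), against 20.2% of the 27025 genes with such a promoter. The CCAAT letters stood in 26 of the 33 (78.8%), against 41.1% of all genes. TTTGAA began at a median of 2 bases after the start and CCAAT at a median of 68 bases before it (-68), and the letters of these motifs do not overlap each other. CATTCC, the core of the element bound by TEAD factors, stood in 2 of the 33 (6.06%, in Nusap1 and Ube2c), against 16.6% of all genes. These are matches of letters, and binding was not measured. The 250 bases before the start are printed for Mki67, Cdc20 and Ect2, members described in detail below, and for Gtse1, the member whose level went the other way. The genes were chosen after their values were seen, and Ect2 and Gtse1 have 2 listed promoters each, of which the one that the table lists ahead of the other is given. Capitals mark TTTGAA and CCAAT on either strand (TTCAAA and ATTGG on the other). The Mki67 sequence lies at chr7:135716380-135716629, minus strand, that of Cdc20 at chr4:118437344-118437593, minus strand, that of Ect2 at chr3:27153879-27154128, minus strand and that of Gtse1 at chr15:85859457-85859706, plus strand (GRCm38.p6), each written 5′ to 3′ in the direction of the gene.
Mki67: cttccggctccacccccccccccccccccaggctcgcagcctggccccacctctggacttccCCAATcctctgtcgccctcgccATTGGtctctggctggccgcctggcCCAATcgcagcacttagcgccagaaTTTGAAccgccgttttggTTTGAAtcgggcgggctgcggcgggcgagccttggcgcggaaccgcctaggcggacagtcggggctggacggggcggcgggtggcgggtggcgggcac
Cdc20: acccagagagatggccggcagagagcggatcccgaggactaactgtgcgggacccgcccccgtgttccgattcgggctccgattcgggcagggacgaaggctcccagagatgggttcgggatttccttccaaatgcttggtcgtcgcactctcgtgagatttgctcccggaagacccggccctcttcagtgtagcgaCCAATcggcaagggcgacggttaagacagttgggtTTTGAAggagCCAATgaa
Ect2: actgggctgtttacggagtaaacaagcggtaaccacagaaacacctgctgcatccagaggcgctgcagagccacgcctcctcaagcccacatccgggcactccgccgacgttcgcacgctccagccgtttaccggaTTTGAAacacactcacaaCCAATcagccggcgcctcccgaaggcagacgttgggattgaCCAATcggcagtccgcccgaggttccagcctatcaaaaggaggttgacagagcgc
Gtse1: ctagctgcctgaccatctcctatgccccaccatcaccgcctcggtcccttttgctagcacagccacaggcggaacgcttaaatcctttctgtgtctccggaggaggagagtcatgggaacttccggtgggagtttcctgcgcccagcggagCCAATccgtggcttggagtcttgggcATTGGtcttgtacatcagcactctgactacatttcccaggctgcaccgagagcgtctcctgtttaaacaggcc
Mki67 carried TTTGAA on 2 occasions before its start and CCAAT on 3, whereas Cdc20 and Ect2 each carried TTTGAA on 1 and CCAAT on 2. Neither promoter of Gtse1 held TTTGAA, although the printed one held CCAAT on 2 occasions. Bub1, Cenpe and Birc5, among the members with lower values in Yap1KO, held no TTTGAA either. The letters TTTAAA, also searched but not marked above, stood in Gtse1 on 3 occasions over its 2 promoters. They stood in 10 of the 33 members (30.3%), against 14.9% of all genes. The letters TTCCCGC, searched as well, stood in 0 of the 33, against 5.29% of all genes.

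Across the libraries, total counts ranged from 27607755 to 77483047 (Yap1WT) and from 18229945 to 74278015 (Yap1KO). Yap1KO replicate 4 was both the shallowest and far from the others on the leading principal component (66.8, against -6.37 to 1.34 in the other Yap1KO libraries). Yap1 itself had 77.1, 64.2, 78.0 and 72.5 CPM (counts relative to library size) in Yap1WT and 21.3, 27.6, 29.7 and 24.2 CPM in Yap1KO, a log2 fold change of -1.51 (SE 0.13, adjusted p = 0.000208 by edgeR's quasi-likelihood test with Benjamini-Hochberg adjustment). All log2 fold changes below are Yap1KO over Yap1WT from that test unless stated. Epcam and Cdh1, which define epithelial cells, were abundant in every library (938 to 1759 CPM and 744 to 1147 CPM). Gkn1 and Muc5ac, which mark gastric surface mucous cells, were at 7297 to 20908 CPM and at 16.7 to 626 CPM. Epcam, the marker of the sort, was higher in Yap1KO (log2 fold change 0.76, SE 0.10, adjusted p = 0.00188). Cd3e of T cells, Cd79a of B cells, Csf1r of macrophages and S100a8 of neutrophils were below 1 CPM in every library.

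Nearly the whole set had lower values in Yap1KO. By edgeR on all 8 libraries, no single member passed the adjusted test without a term for the series of mouse numbers, and 19 did with it. That term, described further below, was taken up with a difference of these genes between the series already known. Of the 40 members, 39 had a log2 fold change below 0 (51.4% of all genes tested did), and the median was -0.52 against -0.01 over all genes. The values ran from -0.98 for Cdc25c to 0.62 for Gtse1. No member passed the adjusted threshold of 0.05 in either direction by edgeR, which 2.34% of all genes passed as lower and 3.53% as higher. At an unadjusted p under 0.05, 19 members were lower and 0 higher, against 8.97% and 11.5% of all genes. By limma-voom with quantile normalization, the approach of the study, 0 members passed the adjusted test, and by DESeq2 11 passed as lower and 0 as higher, against 4.53% and 6.62% of all genes. The libraries of the groups did not overlap for 3 members, Cdc25c, Hmmr and Kif23, all lower in Yap1KO, which held for 6.01% of all genes. In bulk RNA, fewer dividing cells and less RNA of these genes per cell cannot be told apart.

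**Figure D1:**
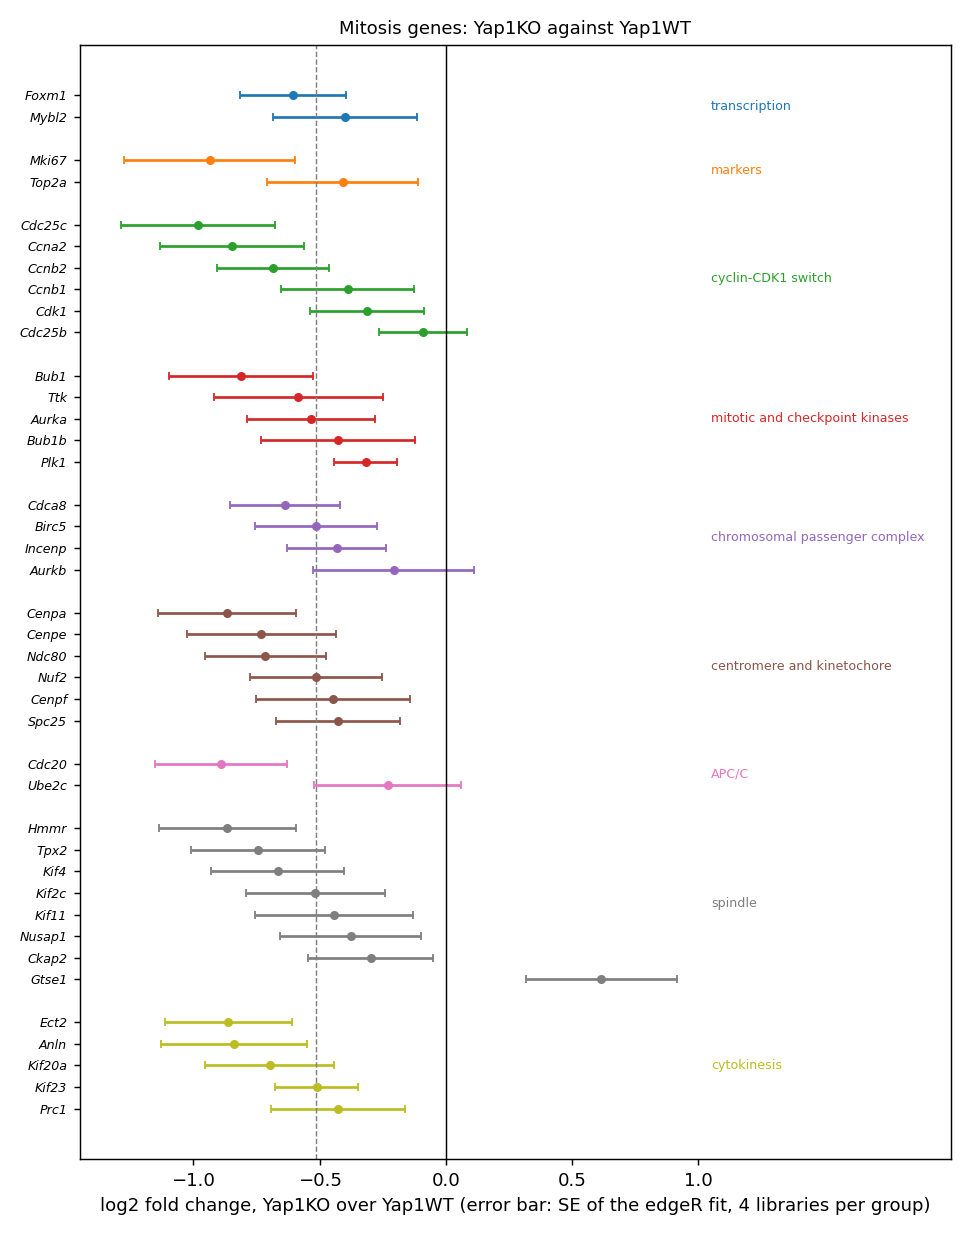
Log2 fold change of Yap1KO over Yap1WT (x axis) for the 40 mitosis genes (y axis), grouped and coloured by role, with the standard error of the edgeR fit as the bar and the median of the 40 (-0.52) as the dashed line. All but Gtse1 lie below 0, and the points run from -0.98 to 0.62.

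Foxm1 encodes the forkhead factor that drives G2 and M transcription, and Mybl2 encodes B-MYB of the same programme. Foxm1 had 20.8, 18.3, 30.5 and 30.9 CPM in Yap1WT and 15.2, 13.8, 21.3 and 15.7 CPM in Yap1KO. The lowest Yap1WT library stood above every Yap1KO library but replicate 3. Its log2 fold change was -0.61 (SE 0.21, adjusted p = 0.134), and that of Mybl2, the least abundant member per length over all 8 libraries, was -0.40 (SE 0.29, adjusted p = 0.489).

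Mki67 encodes Ki67, which coats mitotic chromosomes and is the routine tissue marker of cycling cells. It had 189.9, 229.7, 439 and 374 CPM in Yap1WT (308 ± 118, SD, n = 4) and 139, 81.6, 238 and 185 CPM in Yap1KO (161 ± 66.6). Replicates 3 and 4 of each group were above replicates 1 and 2, and Yap1KO replicate 3 exceeded both lower Yap1WT libraries, so that the groups overlapped. The log2 fold change was -0.94 (SE 0.34, adjusted p = 0.150). Top2a, the topoisomerase that untangles sister chromatids, went from 171 ± 50.5 CPM to 129 ± 56.6 CPM (SD, n = 4), a log2 fold change of -0.41 (SE 0.30, adjusted p = 0.498).

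Members of the switch that starts mitosis ran from -0.98 to -0.09. Cdc25c, the phosphatase that activates CDK1 at mitotic entry, had 9.08, 10.9, 12.9 and 11.6 CPM in Yap1WT and 3.55, 3.63, 8.51 and 6.82 CPM in Yap1KO. Every Yap1KO library lay under every Yap1WT library, and the log2 fold change was -0.98 (SE 0.30, adjusted p = 0.0968). Cdc25b, a second phosphatase of this family that also acts earlier in G2, had 39.8, 29.8, 46.3 and 41.7 CPM in Yap1WT and 33.9, 28.3, 43.1 and 42.8 CPM in Yap1KO. Its groups lay over each other (log2 fold change -0.09, SE 0.17, adjusted p = 0.824). Of the cyclins, Ccna2 and Ccnb2 gave -0.85 (SE 0.29) and -0.69 (SE 0.22), both at an unadjusted p under 0.05, whereas Ccnb1 gave -0.39 (SE 0.26) and their kinase partner Cdk1 -0.31 (SE 0.23). Ccnb1 shares sequence with a pseudogene, Ccnb1-ps, to which 6.09 to 26.8 CPM were assigned, so its own count of 8.49 to 21.2 CPM is uncertain. Taken as a sum, the pair had 31.7, 35.7, 45.9 and 42.1 CPM in Yap1WT and 21.8, 14.6, 42.5 and 26.4 CPM in Yap1KO.

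Among the mitotic and checkpoint kinases, Bub1, which recruits checkpoint proteins to kinetochores, had 23.9, 23.1, 32.3 and 25.8 CPM in Yap1WT and 9.69, 9.57, 23.8 and 16.8 CPM in Yap1KO. Only Yap1KO replicate 3 reached the level of the lower Yap1WT libraries (log2 fold change -0.81, SE 0.28, adjusted p = 0.138). Bub1b, whose product BUBR1 inhibits the APC/C, had 31.3, 27.1, 54.5 and 48.4 CPM in Yap1WT and 23.2, 17.4, 43.9 and 35.2 CPM in Yap1KO. For this gene replicates 3 and 4 of Yap1KO stood above replicates 1 and 2 of Yap1WT, and the log2 fold change was -0.43 (SE 0.31, adjusted p = 0.486). Aurka, the kinase of spindle poles, and Ttk, the MPS1 kinase that starts checkpoint signalling, gave -0.53 (SE 0.25) and -0.59 (SE 0.33). Plk1, the polo kinase of mitotic entry and spindle assembly, differed from the other kinases in its pattern over libraries. It had 159, 149, 152 and 133 CPM in Yap1WT and 103, 146, 121 and 105 CPM in Yap1KO, and its highest Yap1KO value was in replicate 2, the library lowest for most of the set. Its log2 fold change was -0.32 with the smallest standard error of the 40 (SE 0.13, adjusted p = 0.183).

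The chromosomal passenger complex corrects faulty attachments and later guides cytokinesis. Cdca8, which encodes its subunit borealin, had 30.8, 29.3, 48.9 and 46.3 CPM in Yap1WT and 21.0, 19.6, 33.4 and 25.7 CPM in Yap1KO (log2 fold change -0.64, SE 0.22, adjusted p = 0.131). Aurkb, its kinase, had 17.5, 15.7, 21.0 and 32.4 CPM in Yap1WT and 12.7, 11.4, 27.0 and 23.9 CPM in Yap1KO. The Aurkb values of replicates 3 and 4 in Yap1KO exceeded those of 3 Yap1WT libraries, and its log2 fold change was -0.21 (SE 0.32, adjusted p = 0.778). Birc5 (survivin) and Incenp, the scaffold, gave -0.52 (SE 0.24) and -0.43 (SE 0.20).

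All 6 centromere and kinetochore members had values below 0, with a median of -0.61. Cenpa, the histone variant that marks centromeres, had 47.5, 61.8, 78.3 and 66.0 CPM in Yap1WT and 24.0, 24.5, 57.5 and 32.7 CPM in Yap1KO. Yap1KO replicate 3 alone overlapped Yap1WT (log2 fold change -0.87, SE 0.27, adjusted p = 0.102). Cenpf, a large protein of the outer kinetochore, had 35.4, 39.4, 66.5 and 48.4 CPM in Yap1WT and 34.3, 15.9, 44.0 and 44.9 CPM in Yap1KO, with 2 Yap1KO libraries inside the range of Yap1WT (log2 fold change -0.45, SE 0.31, adjusted p = 0.466). Cenpe, the kinetochore motor, gave -0.73 (SE 0.29). Of the NDC80 complex that holds microtubules, Ndc80 gave -0.71 (SE 0.24), Nuf2 -0.52 (SE 0.26) and Spc25 -0.43 (SE 0.25).

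The APC/C members parted from each other. Cdc20, the activator that the checkpoint restrains, had 61.8, 62.4, 103 and 79.7 CPM in Yap1WT and 35.2, 24.9, 61.9 and 43.3 CPM in Yap1KO. Its groups touched only at Yap1KO replicate 3 and the lowest Yap1WT library (log2 fold change -0.89, SE 0.26, adjusted p = 0.0838). Ube2c, the E2 enzyme that hands ubiquitin to APC/C substrates and the most abundant member per length, had 49.1, 56.2, 75.3 and 85.5 CPM in Yap1WT and 42.5, 30.9, 80.1 and 73.3 CPM in Yap1KO (log2 fold change -0.23, SE 0.29, adjusted p = 0.722). In both groups the higher pair of Ube2c values was that of replicates 3 and 4.

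Of the 8 spindle members, 7 were below 0. Hmmr, a microtubule-binding protein of spindle poles, had 46.3, 44.1, 63.1 and 54.8 CPM in Yap1WT and 23.4, 15.4, 43.7 and 31.6 CPM in Yap1KO, without overlap (log2 fold change -0.87, SE 0.27, adjusted p = 0.100). Tpx2, which activates Aurora A on the spindle, gave -0.74 (SE 0.26), and the motors Kif4, Kif2c and Kif11 gave -0.67 (SE 0.26), -0.52 (SE 0.27) and -0.44 (SE 0.31). Nusap1, a microtubule bundler, gave -0.38 (SE 0.28). Ckap2, a microtubule-stabilising protein, had 29.2, 30.2, 43.6 and 33.9 CPM in Yap1WT and 27.8, 20.0, 43.2 and 20.0 CPM in Yap1KO, and Yap1KO replicate 3 came close to the highest Yap1WT library (log2 fold change -0.30, SE 0.25, adjusted p = 0.558). Gtse1, a protein of the spindle and of G2 that also binds p53, had 14.2, 12.6, 19.3 and 24.2 CPM in Yap1WT and 27.8, 14.0, 39.1 and 26.4 CPM in Yap1KO. Its Yap1KO replicates 1, 3 and 4 stood above every Yap1WT library and replicate 2 stood among these, giving a log2 fold change of 0.62 (SE 0.30, adjusted p = 0.287).

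Cytokinesis had the lowest median of the roles with more than 2 members, at -0.70. Ect2, the exchange factor that activates RhoA at the cleavage furrow, had 54.9, 54.1, 89.6 and 73.6 CPM in Yap1WT and 33.1, 23.4, 54.9 and 38.2 CPM in Yap1KO. It had the smallest p of the 40 (log2 fold change -0.86, SE 0.25, adjusted p = 0.0812), and Yap1KO replicate 3 was level with Yap1WT replicate 1. Kif23, the motor of the centralspindlin complex, had 68.1, 66.7, 76.4 and 77.9 CPM in Yap1WT and 49.8, 34.2, 61.7 and 57.1 CPM in Yap1KO, again without overlap (log2 fold change -0.51, SE 0.17, adjusted p = 0.109). Anln (anillin, which links actin and septins at the furrow) and Kif20a gave -0.84 (SE 0.29) and -0.70 (SE 0.26). Prc1, which bundles the microtubules of the midzone, had 42.4, 44.2, 67.7 and 67.7 CPM in Yap1WT and 37.8, 25.7, 63.4 and 37.7 CPM in Yap1KO (log2 fold change -0.43, SE 0.26, adjusted p = 0.413). As the library kit does not mark strand, reads in exons shared with another gene cannot be assigned with certainty. Such sharing covered over 20% of the exon bases of Kif20a (31.8%, with Cdc23), Ube2c (22.8%, with Tnnc2) and Prc1 (21.8%, with Rccd1), in GENCODE M21.

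**Figure D2:**
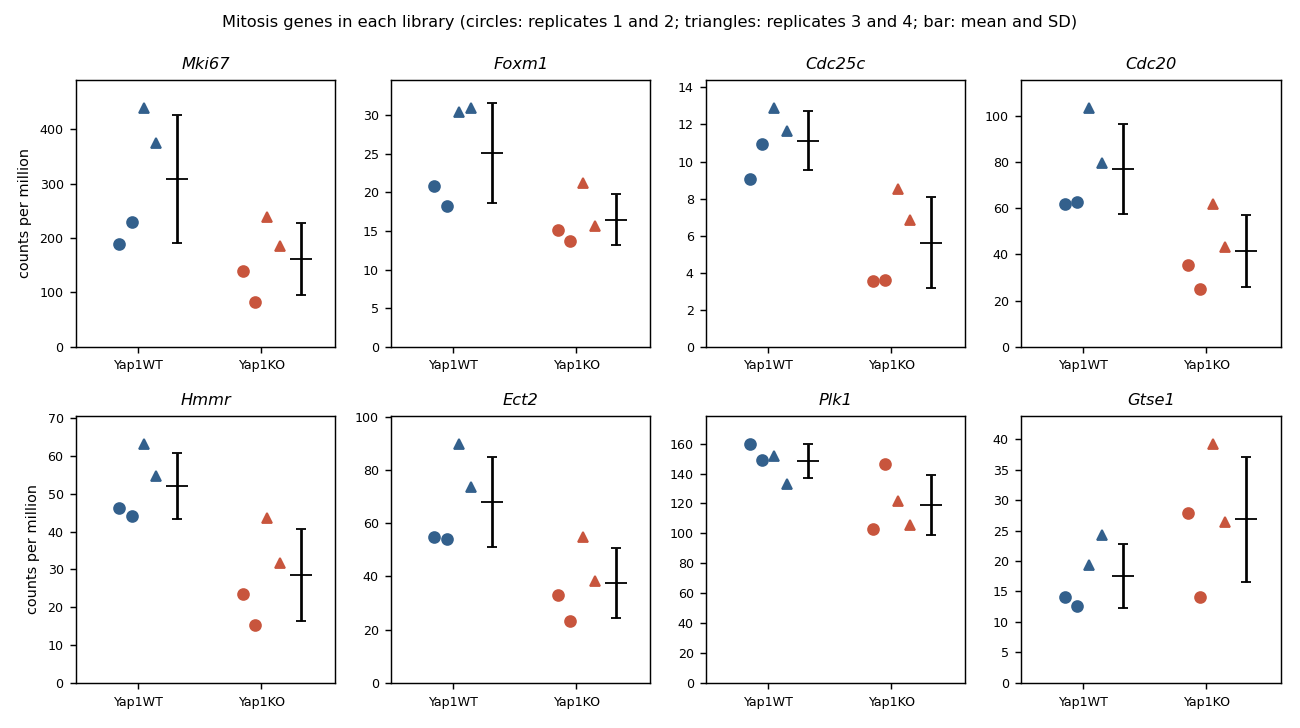
TMM-normalized CPM (y axis, from 0) of 8 mitosis genes in each library of Yap1WT (blue) and Yap1KO (red), with circles for replicates 1 and 2, triangles for replicates 3 and 4, and the bar for the mean and SD of 4 libraries. In Mki67, Cdc20 and Ect2 the triangles sit above the circles of the same group, in Plk1 they do not, and Gtse1 is the gene with higher values in Yap1KO.

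The levels of the members spanned a wide range. On the deposited log2 RPKM scale, which divides by gene length, the mean level in Yap1WT was highest for Ube2c (6.14; 5.84 in Yap1KO) and Plk1 (6.07; 5.77). These neighbours in the order did not differ beyond their spread, since Ube2c ran from 5.76 to 6.52 and Plk1 from 5.91 to 6.21 over the Yap1WT libraries. Cenpa (5.56; 4.62) and Cdc20 (5.40; 4.48) followed. The lowest levels in Yap1WT were those of Cenpf (2.06; 1.54) and Mybl2 (1.90; 1.46), which likewise overlapped over libraries, and the lowest in Yap1KO was that of Cdc25c (1.36; 2.54 in Yap1WT).

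Most of the 40 genes shared their high and low libraries. Their summed level was 1776, 1854, 2775 and 2533 CPM in Yap1WT and 1257, 1009, 2164 and 1560 CPM in Yap1KO. Yap1KO replicate 2 had the lowest value of all 8 libraries for 32 of the 40 members, and Yap1WT replicate 3 the highest for 26. Yap1KO replicate 3 had the highest summed level of its group. It exceeded Yap1WT replicate 1 in 32 members and replicate 2 in 33. Against Yap1WT replicates 3 and 4, which share its series of mouse numbers (described below), it was higher in 8 and 9 members. Leaving out Yap1KO replicate 3 moved the median to -0.75 and the number of members lower at an adjusted p under 0.05 from 0 to 14 (2.02% of all genes in that fit), whereas leaving out Yap1KO replicate 2 moved the median to -0.40 with 1 such member, Plk1. Without the shallow Yap1KO replicate 4, 0 members passed, 39 were below 0 and the median was -0.58.

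**Figure D3:**
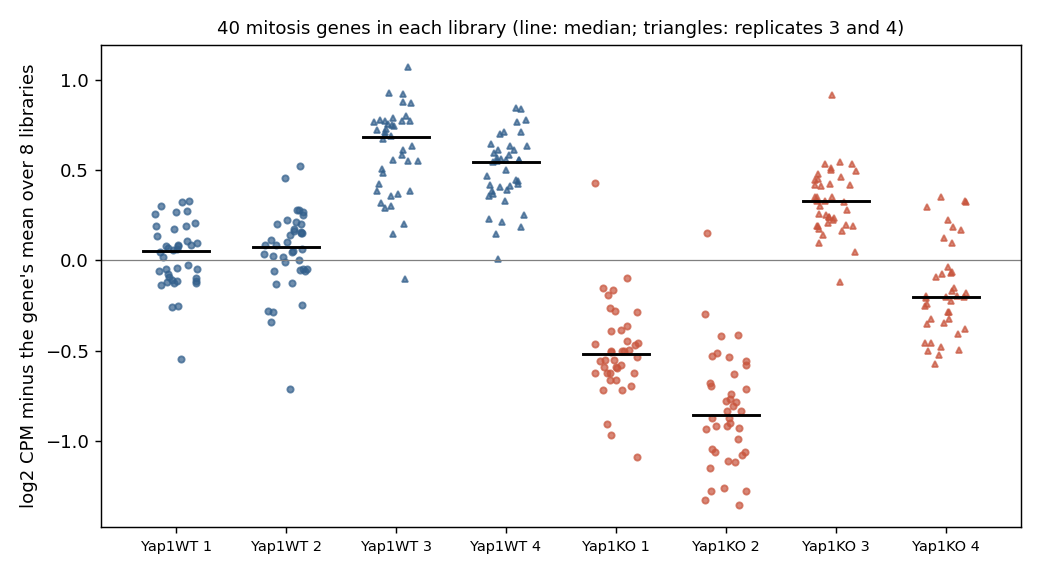
Log2 CPM of each of the 40 mitosis genes minus that gene's mean over the 8 libraries (y axis) in each library (x axis), with the median as a line, Yap1WT in blue, Yap1KO in red and replicates 3 and 4 as triangles. The medians are 0.05, 0.07, 0.68 and 0.55 in Yap1WT and -0.52, -0.85, 0.33 and -0.20 in Yap1KO.

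In both groups replicates 1 and 2 carry mouse numbers of a lower series and replicates 3 and 4 those of a higher series. The mitosis genes differed between these series of numbers too. What the number series stands for (litter, cohort or date) is not given in the sources used here. With group in the model, 39 of 40 members were higher in replicates 3 and 4, with a median log2 difference of 0.66 and a range from -0.13 for Plk1 to 0.95 for Mki67 (SE 0.17, adjusted p = 0.0812). The median over all genes was -0.01. At an unadjusted p under 0.05, 36 members were higher (6.04% of all genes). For 33 members replicates 3 and 4 both stood above replicates 1 and 2 within each group (6.19% of all genes). No member passed the adjusted test, which 0.0148% of all genes passed as higher, but with no filter on low counts 23 did, against 0.649% of all genes in that fit.

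Most members were lower in Yap1KO within each series. In replicates 1 and 2, 39 members were below 0 with a median of -0.70, and in replicates 3 and 4, 39 were below 0 with a median of -0.43. For 26 members the Yap1KO libraries were under the Yap1WT libraries without overlap in both series (10.6% of all genes), and for none were they above. With the series as a term in the model, 19 members were lower at an adjusted p under 0.05 and 0 higher, against 3.34% and 4.43% of all genes. The median was -0.56, close to that without the term, and the standard errors were smaller. These 19 were Ttk and every member with an unadjusted p under 0.05 in the fit without the term except Plk1. Under that term Mki67 gave -0.93 (SE 0.17, adjusted p = 0.0101), Cdc20 -0.92 (SE 0.16, adjusted p = 0.00730), Ect2 -0.88 (SE 0.15, adjusted p = 0.00753), Cdca8 -0.63 (SE 0.11, adjusted p = 0.00967), Hmmr -0.93 (SE 0.18, adjusted p = 0.0137) and Cdc25c -1.07 (SE 0.22, adjusted p = 0.0185). Leaving out 1 library at a time gave 7 (without Yap1KO replicate 4) to 22 (without Yap1KO replicate 3) such members, so the number of calls rests on few mice.

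The log2 fold change was more negative in replicates 1 and 2 than in replicates 3 and 4 for 33 of the 40 members, against 50.9% of all genes. For Cdc25c it was -1.48 (SE 0.27) against -0.67 (SE 0.27), for Bub1 -1.29 (SE 0.22) against -0.51 (SE 0.22), and for Mki67 -0.92 (SE 0.26) against -0.94 (SE 0.26). The test of the difference between series passed the adjusted threshold for 0 members and an unadjusted p under 0.05 for 2, Bub1 and Kif2c, against 1.74% of all genes. Each series holds 2 libraries per group.

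**Figure D4:**
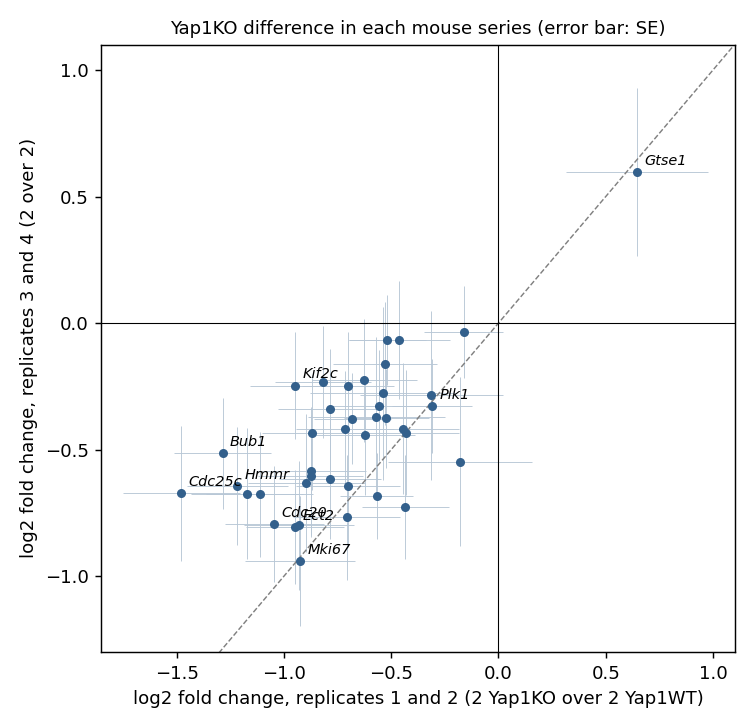
Log2 fold change of Yap1KO over Yap1WT in replicates 1 and 2 (x axis) and in replicates 3 and 4 (y axis) for the 40 mitosis genes, with standard errors as bars and equal values on the dashed line. Apart from Gtse1 (0.65 and 0.60) all points are below 0 on both axes, and most lie above the dashed line on the side of the larger difference in replicates 1 and 2.

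A further 122 genes of mitosis and 58 genes of S phase, in which DNA is copied, were set beside the members. Of the 122, 106 were below 0 (51.4% of all genes were), with a median of -0.34. By edgeR's adjusted test 1 was lower and 1 higher, against 2.34% and 3.53% of all genes. At an unadjusted p under 0.05, 35 were lower and 1 higher, against 8.97% and 11.5% of all genes. By role, the 31 spindle and cytokinesis genes had a median of -0.65, the 35 checkpoint and kinetochore genes one of -0.45 and the 8 condensin genes one of -0.46. The 10 entry regulators had -0.27, the 13 cohesin and separase genes -0.21, the 15 APC/C subunits and their regulators, many of which are made through the whole cycle, had -0.12 and the 10 DREAM subunits -0.11. The differences between roles were not tested. Mad2l1, which encodes the checkpoint protein MAD2, was lower in Yap1KO (46.4 ± 7.20 against 26.7 ± 7.12 CPM, SD, n = 4, log2 fold change -0.79, SE 0.19, adjusted p = 0.0346). Psrc1, a spindle protein, was higher. It had 2.71, 2.14, 3.03 and 2.69 CPM in Yap1WT and 7.88, 6.50, 16.6 and 16.4 CPM in Yap1KO, with no overlap (log2 fold change 2.16, SE 0.34, adjusted p = 0.00485). Arhgap11a, which limits RhoA activity, and Hjurp, which loads CENP-A, gave -0.88 (SE 0.24, adjusted p = 0.0655) and -0.66 (SE 0.19, adjusted p = 0.0766). At the other end Stag1 of cohesin and the APC/C subunit Anapc4 stood at 0.01 (SE 0.13) and -0.003 (SE 0.10).

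The S-phase genes lay closer to 0. Of the 58, 52 were below 0 (51.4% of all genes were), with a median of -0.24. In edgeR's adjusted test 0 were lower and 1 was higher, against 2.34% and 3.53% of all genes. At an unadjusted p under 0.05, 9 were lower (8.97% of all genes), and by DESeq2's adjusted test 3 were (4.53% of all genes). The gene higher in edgeR's adjusted test was Pold3, a subunit of DNA polymerase delta, with 90.7 ± 13.2 CPM in Yap1WT and 139 ± 19.8 CPM in Yap1KO (SD, n = 4, log2 fold change 0.62, SE 0.13, adjusted p = 0.0250). Rfc5 of the clamp loader and the primase subunits Prim1 and Prim2 gave -0.48 (SE 0.13), -0.58 (SE 0.17) and -0.52 (SE 0.16), with adjusted p of 0.0703, 0.0893 and 0.102. The licensing factor Cdc6 and the licensing inhibitor Gmnn (geminin) were both at 0.00 (SE 0.20). The summed S-phase level was 1437, 1712, 1886 and 2078 CPM in Yap1WT and 1432, 1447, 1905 and 1507 CPM in Yap1KO, and Yap1KO replicate 1 was level with Yap1WT replicate 1. With the series term, 17 of the 122 further mitosis genes and 3 of the 58 S-phase genes passed the adjusted test as lower. This held for 3.34% of all genes.

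**Figure D5:**
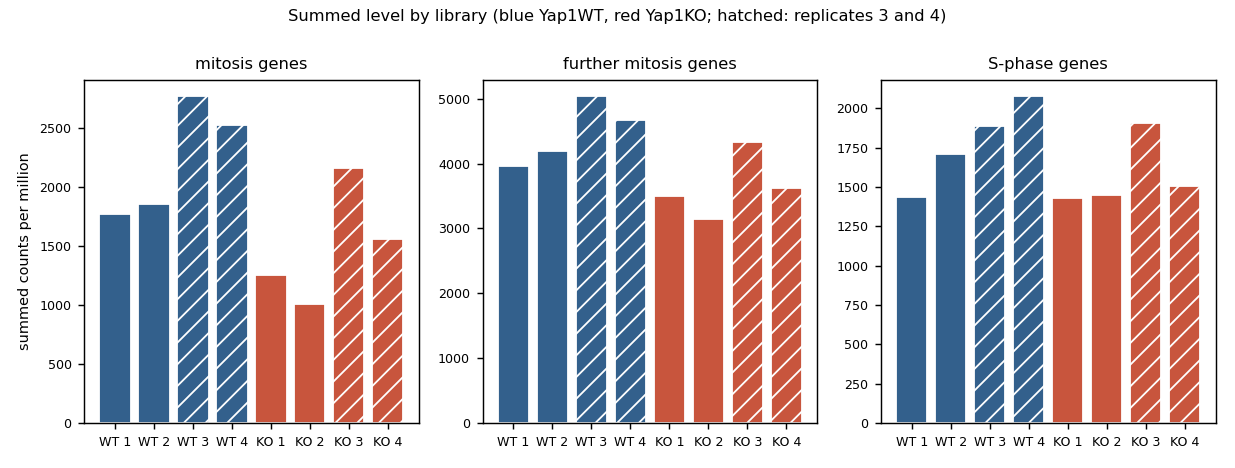
Summed CPM (y axis, from 0) of the 40 mitosis genes, the 122 further mitosis genes and the 58 S-phase genes in each library, with Yap1WT in blue, Yap1KO in red and replicates 3 and 4 hatched. The mitosis sums span 1776 to 2775 CPM for Yap1WT against 1009 to 2164 CPM for Yap1KO. The S-phase sums span 1437 to 2078 CPM for Yap1WT against 1432 to 1905 CPM for Yap1KO.

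Endothelial and fibroblast markers in the sort mostly had higher values in Yap1KO, although their sums overlapped between the groups. All 6 endothelial markers were above 0, with a median log2 fold change of 1.32, and their sum spanned 138 to 474 CPM over the Yap1WT libraries against 416 to 850 CPM over those of Yap1KO. The defining Pecam1 spanned 27.8 to 85.5 CPM against 75.1 to 167 CPM, and Cdh5 13.0 to 54.7 CPM against 42.4 to 92.9 CPM. Of 6 fibroblast markers, 5 were above 0 (median 0.998), with sums of 81.5 to 675 CPM against 306 to 1038 CPM and with Col1a1 and Dcn detected in every library. None of these 12 passed the adjusted test. The macrophage sum was 4.53 to 10.2 CPM against 5.08 to 14.5 CPM, and of its 3 tested genes Cd68 was higher in Yap1KO (2.53 to 3.61 CPM against 4.31 to 7.89 CPM, log2 fold change 1.06, SE 0.27, adjusted p = 0.0468). Lyz2 and Itgam, the others tested, were below 0 at -0.50 (SE 0.96) and -1.01 (SE 0.96) and did not pass. Csf1r and Adgre1, which define macrophages, were under 1 CPM in every library, and the sums of the T and NK, B and plasma, and neutrophil and mast cell lists were at most 2.87 CPM. The epithelial sum was 9175 to 11152 CPM against 8418 to 10760 CPM. The sum of the mucous cell markers Muc5ac, Gkn1, Gkn2, Tff1 and Tff2 was 70632 to 116556 CPM against 75306 to 102251 CPM. Tff2 (33509 to 76095 CPM) made up much of the latter sum and stood at 0.50 (SE 0.20). The other 4 of these markers were below 0, at -0.95 (Gkn2, SE 0.31), -0.67 (Muc5ac, SE 0.76), -0.62 (Gkn1, SE 0.24) and -0.53 (Tff1, SE 0.19). The median over the 5 was -0.62, and none passed the adjusted test. The part of endothelial and fibroblast RNA, or of the lower surface mucous values, in the lower mitosis values was not tested.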

How the data were processed

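Bulk RNA of sorted EpCAM+ cells was measured in 8 libraries. Per the study's methods, the authors mapped the read pairs with Subread (GRCm38/mm10) and summed them over RefSeq genes with featureCounts. The deposited counts are these unscaled whole numbers. The deposited log2 values (voom, quantile normalization by the authors) are log2 RPKM under a header that reads FPKM, and were used for levels between genes. Samples were tied to columns by mouse number, and the 6 columns that fit no sample stayed out. Rows without a gene name (0.552% to 0.789% of counts) and 762 pseudogene rows were left out of the tests.

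The quasi-likelihood test of edgeR 4.0.16 (R 4.3.3, TMM, Benjamini-Hochberg adjustment, threshold 0.05) covered the 13495 genes that exceeded 0.5 CPM in 6 or more libraries. limma 3.58.1 and DESeq2 1.42.0 served as alternatives, beside other scaling factors and filters, a block for replicate number or for mouse series, and leaving out each library. CPM are TMM-normalized, and standard errors come from the log2 fold change and its F value. The test was checked on simulated counts, which held no built-in difference between the mouse series. P-values measure the spread between single mice. Figures were drawn with matplotlib 3.10.9 in Python 3.11.15.

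The 40 members, the further lists, the series term and the rule for named genes were chosen with earlier results of these data known. The rule names all members and gives each library's value for the smallest and, in roles of 4 or more, the largest p, and for Mki67. It also names, with ranges, means or fold changes, the defining markers, the 4 genes of smallest and 2 of largest p in each further list and the 5 other genes closest to Mki67. Values of Plk1, Ube2c, Gtse1 and Kif23 in each library, and those of Psrc1, Cd68, Lyz2, Itgam and the other mucous cell markers, were added after their values were seen.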

Additional observations from a re-analysis of the deposited data

Results flagged for a closer look

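Of the 80 sets of 4 libraries (40 members in 2 groups) in which the most extreme library was compared with the others, 1 was flagged because a single library stood apart. Cdk1 in Yap1WT had 46.3 CPM in replicate 1 against 67.3, 68.9 and 71.5 CPM in the others, a gap of 0.831 of the whole range, just over Dixon's critical value for 4 samples. Chance alone flags about 1 set in 20.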

How the results depend on the processing

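Yap1 stayed lower and past the threshold under every alternative run (log2 fold change -1.58 to -1.43). Of the mitosis genes, 0 passed as lower with limma-voom, other scaling factors, other filters or limma-trend on the deposited log2 values, and 11 did with DESeq2, 20 with the replicate block and 19 with the series block. DESeq2 and the replicate block gave 587 and 552 lower and 858 and 755 higher genes in all, 13 and 24 lower further mitosis genes, and 3 and 2 lower S-phase genes. The series block gave 17 and 3, limma-trend 4 further mitosis genes, and a term for sex, read from Xist and Ddx3y and chosen after seeing the data, 1 S-phase gene. With no filter on low counts 23 members were higher in replicates 3 and 4.

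Leaving out single libraries gave 0 to 14 lower members, 156 to 292 lower and 241 to 481 higher genes in all, 0 to 20 lower further mitosis genes and 0 to 4 lower S-phase genes, with the highest count of members, further mitosis and S-phase genes without Yap1KO replicate 3. It gave 0 to 2 members higher in replicates 3 and 4, and 7 to 22 lower members with the series term: 8, 10, 9 and 15 without Yap1WT replicates 1 to 4 and 12, 9, 22 and 7 without those of Yap1KO. Cdc25b ran from -0.20 without Yap1WT replicate 2 to 0.019 without Yap1KO replicate 2, and was also above 0 (0.00025) without Yap1WT replicate 3. Aurkb ran from -0.44 without Yap1KO replicate 3 to 0.052 without Yap1WT replicate 4, above 0 in that fit alone. The cause of these changes was not tested. Gtse1 was above 0 in every fit run.

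Same-numbered mice of the groups are not paired by the labels. The correlations of their deviations were 0.04, 0.35, 0.05 and 0.15 for replicates 1 to 4, not all over 0.1, and replicate 2 alone correlated best with its own number, so the numbers were not taken to pair the mice.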

Other observations

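The 5 genes outside the set whose pattern over the 8 libraries was closest to that of Mki67 (Euclidean distance of centred log2 CPM) were Racgap1 (0.489), Cit (0.591), Diaph3 (0.596), Ccnb1-ps (0.654) and Adamts15 (0.668). Racgap1, which with Kif23 forms centralspindlin, had 68.0, 70.5, 113 and 98.8 CPM in Yap1WT and 43.0, 30.2, 73.7 and 55.0 CPM in Yap1KO. Cit encodes citron kinase of the midbody and Diaph3 a formin that nucleates actin. Adamts15 encodes a secreted metalloprotease of the extracellular matrix. It had 26.8, 38.5, 60.0 and 59.2 CPM in Yap1WT and 16.9, 14.4, 25.1 and 23.1 CPM in Yap1KO, without overlap. Of these 5 it was the gene that passed edgeR's adjusted test (log2 fold change -1.21, SE 0.27, adjusted p = 0.0290). The 5 were picked by a pattern that includes the Yap1KO difference of Mki67, so lower values in Yap1KO were partly fixed by the choice.

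By their counts of Xist and of the Y-linked Ddx3y, Yap1WT replicates 1 and 4 and Yap1KO replicate 4 had the pattern of female mice and the other 5 libraries that of males, so that sex crossed both the groups and the series of mouse numbers. With sex as a term beside the series term, 19 members were lower, as without it.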
